A study of Rattus norvegicus with 6 samples.

Results

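Fragments of 3 mitochondrial tRNAs, those for glutamate (mt-Glu-TTC), threonine (mt-Thr-TGT) and proline (mt-Pro-TGG), were followed through 6 small RNA libraries of rat muscle. The members were all distinct sequences aligned to a mature or precursor block of 1 of these 3 tRNAs and to no nuclear tRNA, each counted once. There were 2772 of them among the 77567 sequences of the series, 658 of mt-Glu, 1205 of mt-Thr and 909 of mt-Pro, with 18487 reads in all. A further 6 sequences, with 16 reads, also matched a nuclear tRNA and were left out. Each member matched a single one of the 3 tRNAs. The members were 14 to 40 nt long, 869 matched the reference exactly, 1903 carried a mismatch, and 1618 were seen as a single read.

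The libraries were titled as control in 3 cases and as experimental in 3. All 6 were labelled as Lewis rats, an inbred strain, aged 6 to 8 weeks, with muscle as the tissue. The series title concerns small tRNA-derived RNAs as markers of acute rejection of transplanted composite tissue, and the labels do not state how the experimental animals were treated. The design text, which speaks of ultraviolet damage in mouse skin, does not match rat muscle and was not used. A label on skin, which does not match the tissue label, was not used either. No label tells whether each library is a different animal, and a p-value here measures the spread between libraries, which may be technical. The data hold tRNA-aligned reads alone, so the tissue could not be checked against muscle markers.

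Mitochondria make their own tRNAs from their own circular genome. Both strands are copied into long transcripts in which tRNAs stand between the other genes, and nucleases free each tRNA by a cut at its 5′ end and a cut at its 3′ end, after which an enzyme adds the bases CCA. Cuts within the mature tRNA, often in or near the anticodon loop, leave shorter fragments. In mammals the tRNAs for glutamate and threonine flank the cytochrome b gene. The proline tRNA lies tail to tail with that for threonine, on the opposite strand, with its 5′ end beside the control region, where transcription starts.

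By the coordinates of the files, 1-based and with no rat build named in the sources used here, mt-Glu lies at chrM 14062 to 14130 (69 nt), mt-Thr at 15280 to 15346 (67 nt) and mt-Pro at 15348 to 15415 (68 nt). A single base, 15347, separates the Thr and Pro genes. The precursor blocks carry 40 nt on each side of the tRNA, so those of Thr and Pro overlap by 79 bases, and all 79 are complementary. The mature sequences, with the added CCA, are shown here to place the fragments; capitals mark the anticodon, at positions 31 to 33 of each tRNA. Positions count from 1 at the mature 5′ end, and the base before it is −1.
mt-Glu-TTC: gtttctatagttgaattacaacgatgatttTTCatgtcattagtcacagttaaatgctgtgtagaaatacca
mt-Thr-TGT: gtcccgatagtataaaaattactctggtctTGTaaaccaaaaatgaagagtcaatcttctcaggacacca
mt-Pro-TGG: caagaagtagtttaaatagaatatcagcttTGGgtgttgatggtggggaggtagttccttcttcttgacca

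The sequences that carried the differences between the groups are shown next. In the mt-Pro fragments the capital is position 16, where the reference has A and many reads have G (A16G: the reference base, the position, the base of the read), or the mismatch G81C beyond the 3′ end. In the mt-Thr fragments the capitals are the added CCA, or an A read in place of the first base of the tRNA (G1A).
mt-Pro 1 to 25 with A16G: caagaagtagtttaaGtagaatatc
mt-Pro 1 to 28 with A16G: caagaagtagtttaaGtagaatatcagc
mt-Pro 1 to 28: caagaagtagtttaaAtagaatatcagc
mt-Pro 69 to 82 with G81C: ttgtcctgagaaCa
mt-Thr 39 to 70: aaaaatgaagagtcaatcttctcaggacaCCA
mt-Thr −39 to 1 with G1A: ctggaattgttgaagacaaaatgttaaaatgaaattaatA
mt-Thr 14 to 28: aaaaattactctggt
mt-Glu 50 to 65: ttaaatgctgtgtaga

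The tRNA-aligned reads numbered 550004, 740627 and 316990 in the controls and 876494, 1927269 and 1866227 in the experimental libraries. The members gave 1032, 4172 and 1395 of them in the controls and 4643, 1489 and 5756 in the experimental libraries. Experimental replicate 2 stood apart, with 47354 mitochondrial reads in the deepest library, and the other libraries held 30884 to 154794. Shares within a tRNA or of the mitochondrial reads are therefore given first, since they do not move with the total. The widest 95% Wilson interval reached 8.15 percentage points to either side for the share of a tRNA's reads in a class such as 5′ fragments. For a share of mitochondrial reads it reached 0.201 points. Shares over fewer reads, such as those at a single position, can have wider intervals. These intervals cover counting error only, since copies made by PCR are not independent molecules.

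The order of the 3 tRNAs by abundance differed between the groups of libraries. In the control libraries mt-Glu took 0.431%, 0.340% and 0.3002% of the mitochondrial tRNA reads, and in the experimental libraries 1.05%, 1.34% and 1.63%. Every experimental library lay above every control library (exact two-sided permutation p = 0.1, the smallest that 3 against 3 libraries allow; adjusted p = 0.4). mt-Pro took 0.913%, 1.33% and 1.01% in the controls and 0.683%, 0.688% and 0.864% in the experimental libraries, all lower (exact permutation p = 0.1, adjusted p = 0.4). mt-Thr took 2.00%, 1.88% and 1.195% against 1.67%, 1.11% and 1.22%, with overlap (exact permutation p = 0.3, adjusted p = 0.48). In every control library mt-Glu was thus the lowest of the 3 and mt-Thr the highest. In every experimental library mt-Pro was the lowest, while the order of mt-Glu and mt-Thr varied between libraries. The separation of mt-Glu and mt-Pro holds for mitochondrial reads as the denominator. Of all tRNA-aligned reads, mt-Glu took 0.0242%, 0.0539% and 0.0527% in the controls against 0.163%, 0.0330% and 0.136%, and mt-Pro took 0.0513%, 0.211% and 0.178% against 0.106%, 0.0169% and 0.0717%. Both overlapped between the groups (exact permutation p = 0.3, adjusted p = 0.48 for each). The 3 genes are of nearly equal length, so no correction for length was made. Whether fewer cells of a type or less RNA per cell lies behind a level cannot be told apart in bulk tissue.

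**Figure D1:**
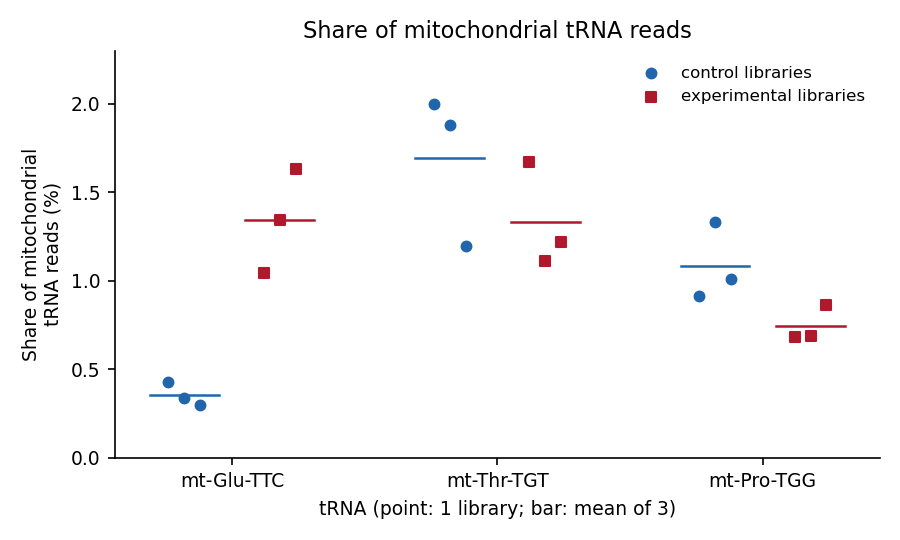
Share of all mitochondrial tRNA reads, in percent, taken by each of the 3 tRNAs; each point is 1 library (blue circles control, red squares experimental) and the bar is the mean of 3. The mt-Glu points lie between 0.3002% and 0.431% in the controls and between 1.05% and 1.63% in the experimental libraries, and the mt-Pro points move the other way without overlap.

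Among the 22 mitochondrial tRNAs, mt-Glu stood at place 19 by its mean share in the controls and at place 12 in the experimental libraries. The ratio of its means, 3.76, came after that of mt-Gln, 3.90. Of the other 19 mitochondrial tRNAs, 6 were higher and 2 lower without overlap. Fitted as sums over all 69 anticodons (limma voom, trimmed mean of M values scaling), mt-Glu stood 1.55 higher on the log2 scale (SE 0.716), mt-Thr at -0.62 and mt-Pro at -0.83. The groups overlapped in the sums of all 3, and none of the 3 passed (limma voom adjusted p = 0.429, 0.76 and 0.668), nor did any of the 69 sums, of which 6 had an unadjusted p under 0.05; groups that do not overlap made up 17.4% of the sums. Without experimental replicate 2 the mt-Thr value was -0.00245 and the mt-Pro value -0.36. Counting exact matches alone, which drops reads with A16G among other mismatched reads, turned the mt-Pro value to 0.73.

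The single fragments that were called differed by tRNA. Of the 2772 members, 37 had enough reads to be tested, and limma voom called 4 higher and 12 lower in the experimental libraries at an adjusted p under 0.05. Over all 2226 fragments of the series that were tested, 18.7% were called higher and 7.64% lower, and 40.7% had groups that did not overlap, which was so for 27 of the 37 members. Over the 787 mitochondrial fragments tested, 7.5% were called higher, 17.2% lower, and 40.9% did not overlap. The 4 higher were all of mt-Glu, with 12 tested and a median log2 fold change of 1.69. The 12 lower were 7 of the 8 tested of mt-Pro, with a median of -4.26, and 5 of the 17 tested of mt-Thr, with a median of -1.44. Of the 7 of mt-Pro, all but 69 to 82 with G81C carried A16G, whose share itself differed between the groups. Their falls are thus partly a difference in that base. Exact and mismatched reads of the same ends were also joined, in a fit with its own scaling factors. There 5 of the 8 tested of mt-Pro were called lower and 1 higher, with a median of -3.31. The median was 0.21 over all fragments tested and -0.54 over the mitochondrial ones, and with library totals as the scale the first of these stood at -0.07. Members reach the test through the group in which they are abundant, so these medians describe the tested members only.

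Those calls rest on a spread pooled over all fragments. When each fragment kept its own spread, 0 of the 37 members passed, against 0.674% of all fragments called higher and 0.359% lower, while 5 and 10 members had an unadjusted p under 0.05 in the higher and lower direction. When exact and mismatched reads with the same ends were summed into places, 44 member places were tested, and 7 were called higher and 11 lower (limma voom; 13.7% and 6.74% of all 1350 places, and 10.7% and 10.6% of the 754 mitochondrial ones). Groups did not overlap in 29 of the 44, against 39.3% of all places and 48.4% of mitochondrial ones. The places had scaling factors of their own, such as 0.416 in place of 0.562 for experimental replicate 2. A place and its fragment can thus differ by scale as well as by the reads joined. With each place's own spread, 1 was called lower, mt-Thr 40 to 70 (limma voom adjusted p = 0.0432), and none higher, against 0.444% and 0.667% of all places; 12 and 11 had an unadjusted p under 0.05.

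**Figure D2:**
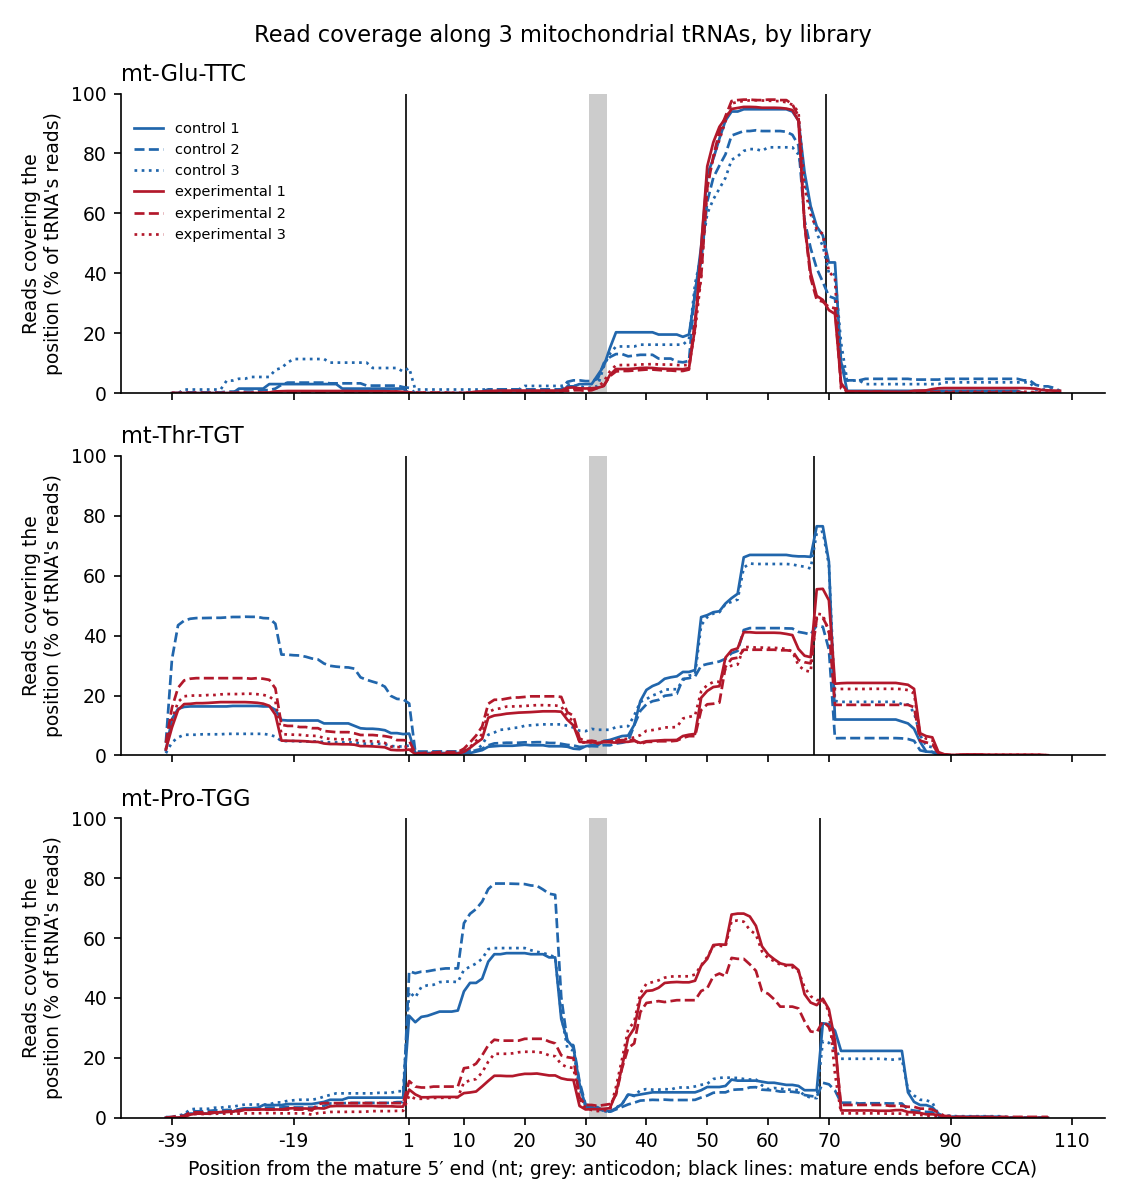
Share of each tRNA's reads, in percent, that cover each position, 1 line per library (blue control, red experimental; solid, dashed and dotted for replicates 1, 2 and 3); the grey band is the anticodon, the black lines are the ends of the gene, and past the 3′ line added CCA and precursor bases are drawn together. In mt-Pro the control lines are high before the anticodon and the experimental lines high after it, while in mt-Glu all 6 lines peak at the same place near the 3′ end.

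The proline tRNA showed the widest difference between the groups. In the control libraries its reads came mainly from before the anticodon, and in the experimental libraries mainly from after it. Position 16 was covered by 54.6%, 78.2% and 56.7% of the mt-Pro reads in the controls and by 14.04%, 25.8% and 21.4% in the experimental libraries. Position 55 was covered by 12.4%, 9.46% and 13.3% in the controls and by 68.2%, 53.1% and 65.8% in the experimental libraries. Neither position gave groups that overlap.

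By class, fragments that start at positions 1 to 3 and end inside the tRNA took 32.6%, 47.95% and 42.5% of the mt-Pro reads in the controls and 6.86%, 9.51% and 5.90% in the experimental libraries. Fragments that end in the last 3 bases or the CCA took 9.22%, 7.16% and 7.10% in the controls and 40.6%, 31.9% and 43.3% in the experimental libraries. Internal fragments took 28.7%, 33.3% and 21.3% against 44.9%, 48.8% and 46.3%. In each of the 3 classes the groups did not overlap (exact permutation p = 0.1, adjusted p = 0.18), and leaving out any 1 library kept the differences between -37.8 and -30.1 points for 5′ fragments and between 28.4 and 34.1 points for 3′ fragments. Among the other 19 mitochondrial tRNAs the difference in 5′ fragments ran from -6.05 to 6.79 points and that in 3′ fragments from -33.6 to 29.5 points. Both mt-Pro values lay beyond those ranges, a description over 22 tRNAs of the same libraries. Internal fragments were higher without overlap in 14 of the other 19, so that difference was shared.

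**Figure D3:**
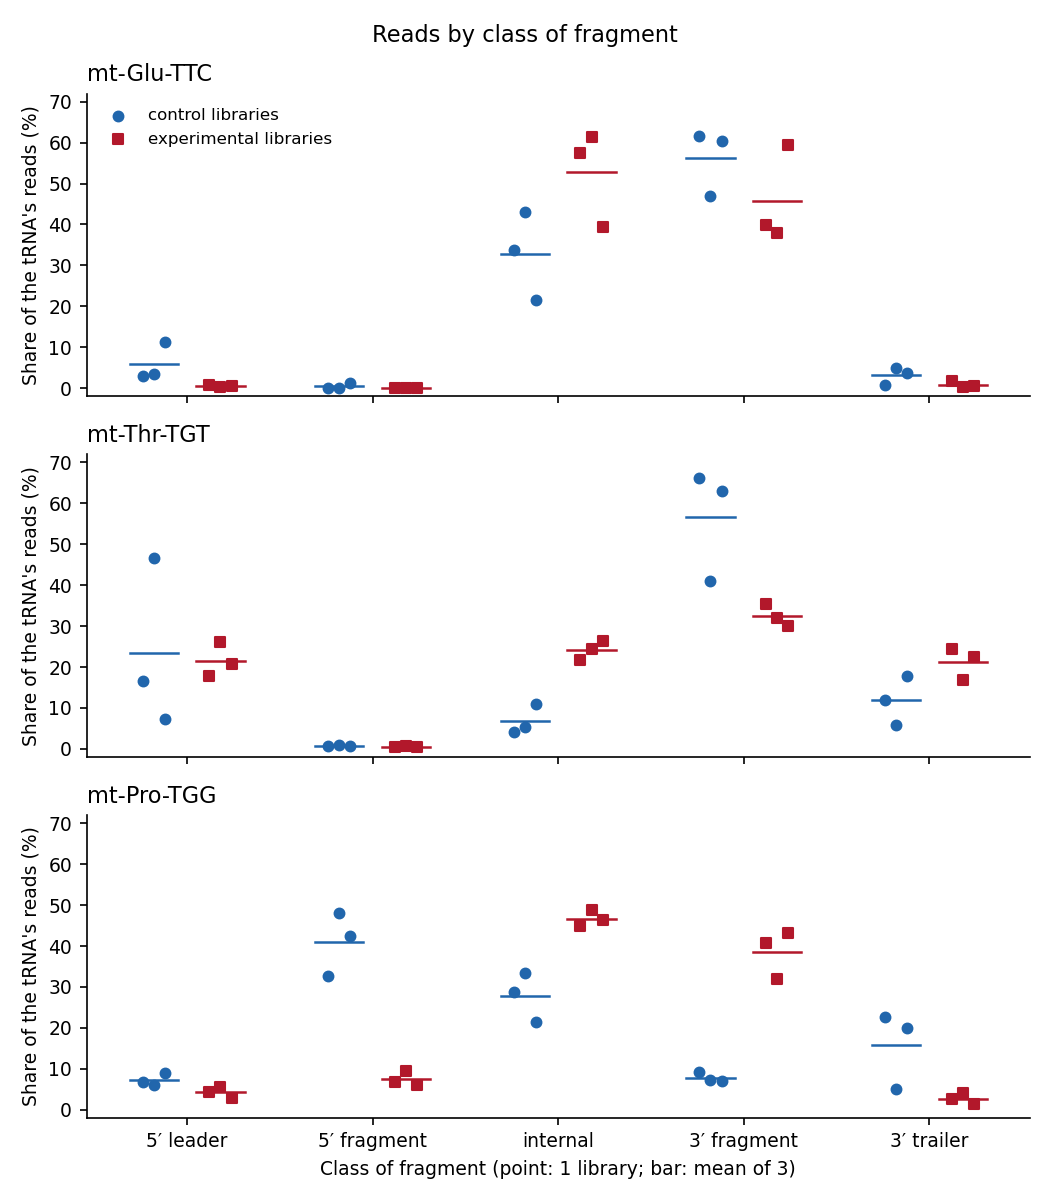
Share of each tRNA's reads, in percent, by class of fragment; each point is 1 library (blue circles control, red squares experimental) and the bar is the mean of 3. In mt-Pro the 5′ fragments lie between 32.6% and 47.95% in the controls and at 9.51% or less in the experimental libraries, the 3′ fragments lie at 9.22% or less against 31.9% or more, while the 3′ fragments of mt-Thr are lower in the experimental libraries.

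The 5′ fragments of mt-Pro also ended at other positions. Of those, 64.1%, 66.3% and 60.7% ended at position 25 or 26 in the controls and 21.9%, 19.4% and 27.8% in the experimental libraries. Ends at 28 or 29, closer to the anticodon, took 26.1%, 22.8% and 31.0% against 67.2%, 51.6% and 51.9%. Neither window gave groups that overlap (exact permutation p = 0.1, adjusted p = 0.2). The experimental values rest on 64, 31 and 79 reads.

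The most abundant mt-Pro fragment, 1 to 25 with A16G, stood at 69.7, 382 and 207 CPM (read counts scaled to a common library size) in the controls and at 2.60, 1.93 and 4.21 in the experimental libraries. All control libraries were higher, and it fell by 5.80 on the log2 scale (SE 0.983; limma voom adjusted p = 2.33e-07, or 0.0675 when fitted with its own spread). The fragment 1 base longer, 1 to 26 with A16G, held 29.05, 227 and 145 CPM in the controls and 0.865, 0 and 2.41 in the experimental libraries, and fell by 6.39 (limma voom adjusted p = 1.84e-08; 0.0869 with its own spread). The internal fragment 10 to 25 with A16G held 13.6, 208 and 39.2 CPM against 0.865, 4.82 and 7.22, a fall by 3.76 (limma voom adjusted p = 0.00175; 0.202 with its own spread). It did not pass without control replicate 2 (-2.65, limma voom adjusted p = 0.0734) or without experimental replicate 1 (-3.23, limma voom adjusted p = 0.0632). Fragment 1 to 28 with A16G held 32.9, 138 and 126 CPM against 1.73, 5.78 and 5.41. It fell by 4.30 (limma voom adjusted p = 0.000235; 0.0933 with its own spread). When reads with and without the mismatch were joined, the place 1 to 25 still fell, by 4.34 (limma voom adjusted p = 0.00091; 0.07 with its own spread). The joined place 1 to 26 fell by 5.04 (limma voom adjusted p = 0.00128; 0.0982 with its own spread) and 10 to 25 by 2.85 (limma voom adjusted p = 0.0356; 0.244 with its own spread). For 14 to 28, the fragment with A16G fell by 2.91 (limma voom adjusted p = 0.0219; 0.0791 with its own spread), and the joined place, at -0.42, was not called (limma voom adjusted p = 0.727). The place 1 to 28 no longer passed (-1.55, limma voom adjusted p = 0.138), with 35.3, 93.2 and 97.7 CPM against 29.9, 16.5 and 24.8 and no overlap.

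At the other end of the tRNA, the fragment 54 to 71, which ends in the whole CCA, held 11.6, 13.0 and 5.59 CPM in the controls and 71.8, 18.3 and 42.1 in the experimental libraries. Its groups stood apart, but the fragment did not pass alone (1.85, limma voom adjusted p = 0.148). As a place, with mismatched reads included and other scaling factors, it rose by 2.48 (limma voom adjusted p = 0.0349, or 0.087 with its own spread). Among mt-Pro reads that end in the CCA region, 73.1%, 62.1% and 54.3% carried all of CCA in the controls and 62.9%, 69.6% and 34.1% in the experimental libraries, with overlap.

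**Figure D4:**
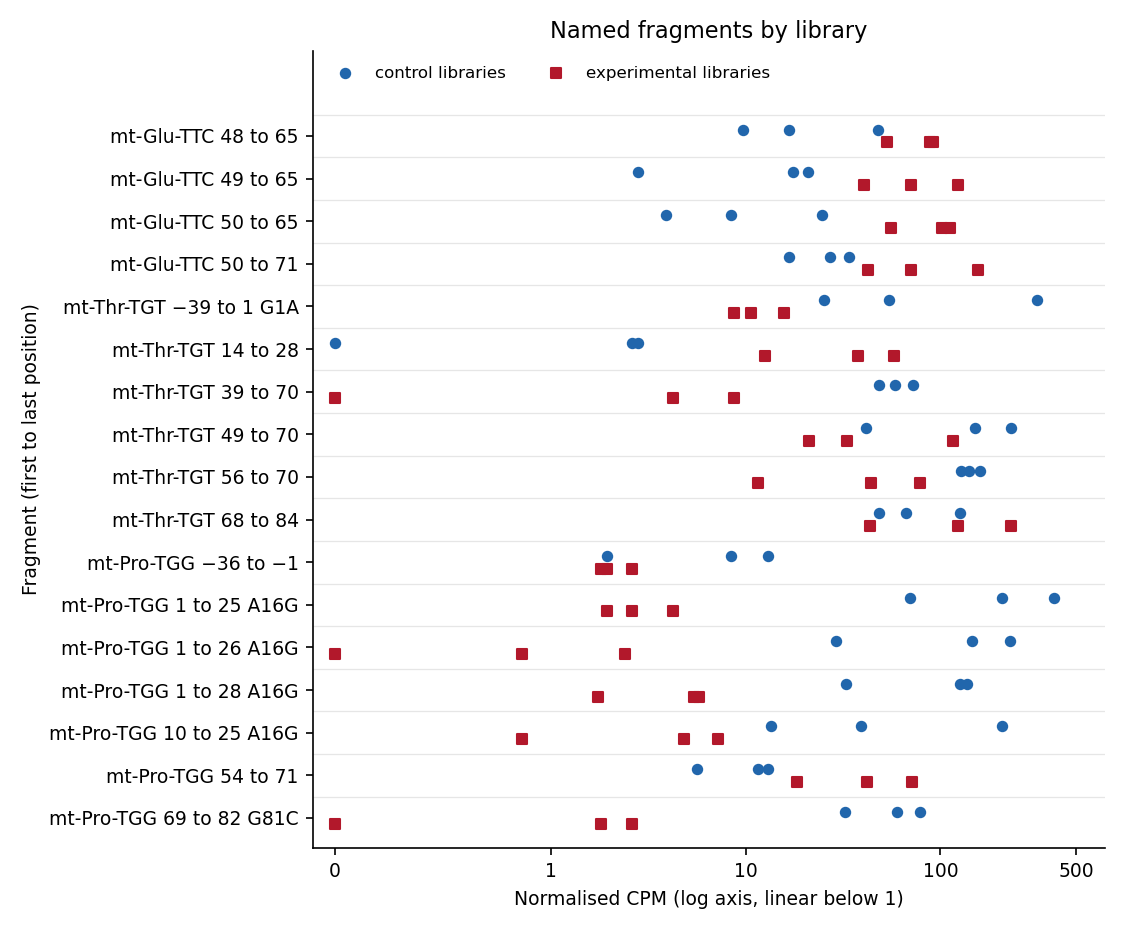
Normalised CPM, on a log axis that is linear below 1, of the fragments named by the rule; each point is 1 library (blue circles control, red squares experimental), and rows give the first and last position with any mismatch. The 4 mt-Pro fragments with A16G lie at 13.6 CPM or more in the controls and at 7.22 or less in the experimental libraries, and the mt-Glu fragments lie higher in the experimental libraries.

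The base read at position 16 of mt-Pro differed between the groups. The share of reads over that position with G, where the reference has A, was 100%, 100% and 99.7% in the control libraries and 26.3%, 64.1% and 54.8% in the experimental libraries. The counts behind these were 147 of 147, 1193 of 1193 and 316 of 317 reads in the controls and 30 of 114, 50 of 78 and 137 of 250 in the experimental libraries. The groups did not overlap (exact permutation p = 0.1, adjusted p = 1 over 285 mismatches). Of those 285 mismatches it was the only one whose share differed by 50 percentage points or more; the difference was -51.5 points and -40.4 without experimental replicate 1.

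The table allows 1 mismatch in a read, so a read with G at position 16 has no room for a second mismatch and a read with A has. Among reads that carry no other mismatch, those with G made up all 154, 1222 and 318 in the control libraries. In the experimental libraries they were 32 of 99, 51 of 82 and 148 of 256 (32.3%, 62.2% and 57.8%). The 1694 control reads thus held none with A, which allows a share of up to 0.177% over the group by counting error, while 206 such reads were found in the experimental libraries beside 231 with G. The mixture was seen in 5′ fragments (29.5%, 63.3% and 49.3% with G) and in internal fragments (34.5%, 61.5% and 60.5%). It was also seen between fixed ends: of reads running from 1 to 28, 8.70%, 46.2% and 29.03% had G in the experimental libraries, and all 17, 106 and 45 in the control. The fragment 1 to 28 with A, shown above, was at 0 in every control library and at 18.2, 6.74 and 13.2 CPM in the experimental ones, at least 6.97-fold higher when the control group as a whole is set to 3 counts. The fragment 14 to 28 with A was at 0 in the controls and at 7.79, 4.82 and 8.42 CPM, at least 3.84-fold higher by the same reckoning. Both fragments were picked after their values were seen. Whether the G stands in the DNA or in the RNA was not tested. All 6 libraries are labelled with 1 strain and the labels name no donor animal, while the title concerns transplantation. Whether the experimental libraries hold tissue of more than 1 strain was not tested, so the shares and the falls of fragments with A16G describe reads with that base, not the tRNA as a whole.

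**Figure D5:**
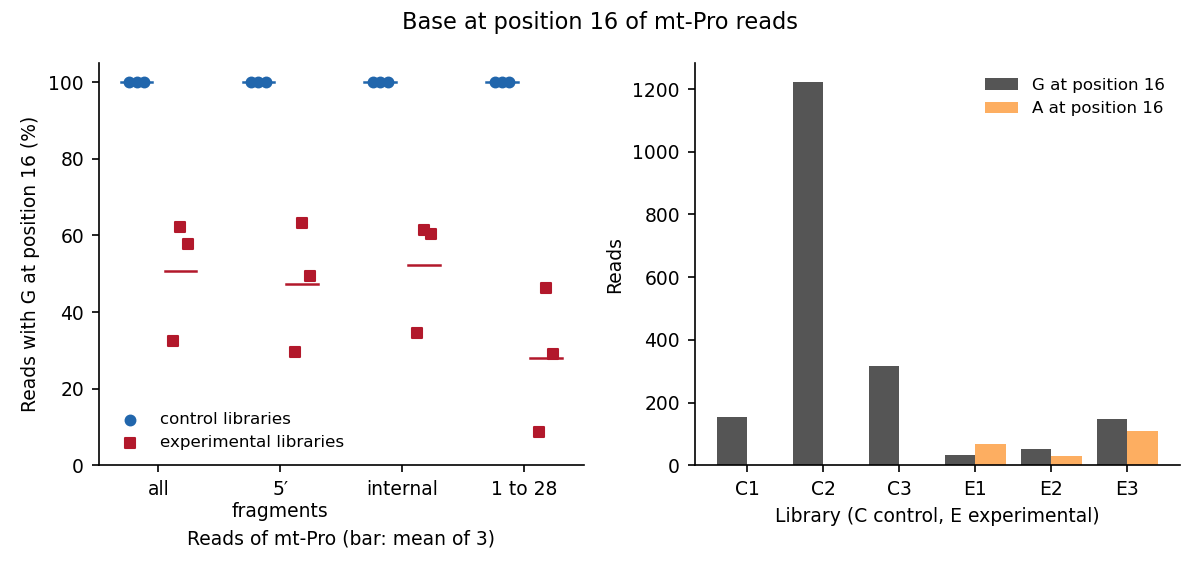
Left, percent of mt-Pro reads with G at position 16 among reads with no other mismatch, for all such reads, for 5′ fragments, for internal fragments and for reads from 1 to 28; each point is 1 library and the bar is the mean of 3. Right, the same reads with no other mismatch, with G (grey) and with A (orange), in each library; all control reads of that kind have G, and each experimental library holds both bases.

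The share of mt-Pro reads that match the reference stood at 22.3%, 13.4% and 23.8% in the controls and at 71.2%, 57.4% and 65.9% in the experimental libraries. The base at position 16 and the share of reads that cover it both differed between the groups. Their parts in this difference were not separated. A count limited to exact matches removes every control read over position 16 that has G. With that limit the difference in 5′ fragments turned from -33.6 to 5.17 points.

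Beyond the 3′ end of mt-Pro, on the stretch that is complementary to mt-Thr, reads that start past the mature end took 22.7%, 5.12% and 19.9% of the mt-Pro reads in the controls and 2.57%, 3.99% and 1.35% in the experimental libraries (exact permutation p = 0.1, adjusted p = 0.18). The groups did not overlap. From 83.3% to 98.4% of these began at position 69, the first base after the tRNA. The most abundant of them, 69 to 82 with G81C, held 60.03, 32.5 and 78.3 CPM in the controls and 2.60, 0 and 1.80 in the experimental libraries. It fell by 5.21 (SE 1.00; limma voom adjusted p = 7.39e-06; 0.0741 with its own spread). The same fragment without the mismatch, picked after its values were seen, held 17.4, 9.10 and 81.1 CPM against 1.73, 0.963 and 0.601, also without overlap. Joined as a place the 2 forms and others with these ends fell by 4.42 (limma voom adjusted p = 0.00196; 0.0843 with its own spread). Of the other 19 mitochondrial tRNAs, 9 had a lower and 1 a higher trailer share without overlap.

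On its 5′ side, mt-Pro borders the control region, and the flank held in the precursor block covers 15416 to 15455. Reads that start there took 6.74%, 6.01% and 8.88% of the mt-Pro reads in the controls and 4.39%, 5.52% and 2.91% in the experimental libraries, lower in each of the latter (exact permutation p = 0.1, adjusted p = 0.2). The control reads numbered 19, 94 and 50 and the experimental 41, 18 and 39. Most ended at the last base before the tRNA or carried an A in place of its first base. Ends at −1 took 10.5%, 24.5% and 28% in the controls and 21.95%, 22.2% and 17.9% in the experimental libraries. Reads with an A in place of the first base of the tRNA took 57.9%, 34.04% and 46% against 61.0%, 38.9% and 35.9%. The groups overlapped in both (exact permutation p = 1 for each). The most abundant reads ran from −36 to −1 and, with the A, from −36 to 1.
mt-Pro −36 to −1: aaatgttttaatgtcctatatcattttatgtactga
mt-Pro −36 to 1 with C1A: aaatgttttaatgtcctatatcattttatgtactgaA
The first, chosen as the most abundant leader read, held 1.94, 13.0 and 8.39 CPM in the controls and 2.60, 1.93 and 1.80 in the experimental libraries, with overlap. The second, chosen after its values were seen, had 10 reads in all.

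The threonine tRNA gave reads from its 5′ flank, its 3′ part and its 3′ flank. The 3′ fragments took 66.3%, 41.1% and 63.0% of its reads in the controls and 35.5%, 31.9% and 29.9% in the experimental libraries. Internal fragments took 4.21%, 5.30% and 11.0% against 21.7%, 24.3% and 26.4%. Neither class gave groups that overlap (exact permutation p = 0.1, adjusted p = 0.18). The 3′ fragment share thus moved the other way from that of mt-Pro, and of the other 19 mitochondrial tRNAs it was lower without overlap in 8 and higher in 4. The contrast between the 2 tRNAs was not itself tested.

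Within the 3′ fragments of mt-Thr, those that start in or beside the anticodon loop, from position 27 to 43, took 36.9%, 46.2% and 33.9% in the controls and 8.52%, 8.93% and 16.5% in the experimental libraries. The groups did not overlap (exact permutation p = 0.1, adjusted p = 0.15). Fragment 39 to 70, with the whole CCA, held 48.4, 72.8 and 58.7 CPM in the controls and 8.65, 0 and 4.21 in the experimental libraries, and fell by 4.47 (SE 0.997; limma voom adjusted p = 0.000167; 0.128 with its own spread). Its neighbours 38 to 70 and 40 to 70 fell by 4.26 and 4.12 (limma voom adjusted p = 0.000378 and 0.000718; 0.101 and 0.108 with their own spread). The short form 39 to 69, without the last A of CCA, fell by 4.53 (limma voom adjusted p = 0.000256; 0.0547 with its own spread). These 3 were picked after their values were seen.

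Shorter 3′ fragments of mt-Thr did not pass, and they did not all move the same way. Fragment 56 to 70 held 128, 140 and 159 CPM in the controls and 78.7, 11.6 and 43.9 in the experimental libraries, lower in each of the latter (-2.03, limma voom adjusted p = 0.074). Fragment 49 to 70, the most abundant 3′ fragment, held 151, 41.6 and 232 CPM against 116, 21.2 and 33.1, with overlap (-1.38, limma voom adjusted p = 0.258). Fragment 53 to 70, picked after its values were seen, went the other way without overlap. It held 21.3, 15.6 and 36.4 CPM in control libraries against 152, 53.0 and 44.5, a rise by 1.61 (limma voom adjusted p = 0.193). The CCA was whole in 79.4%, 73.3% and 73.4% of the mt-Thr reads that end in that region in the controls and in 85.7%, 82.1% and 68.95% in the experimental libraries, with overlap.

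The most abundant internal fragment of mt-Thr, 14 to 28, which stops before the anticodon, held 0, 2.60 and 2.80 CPM in the controls and 58.0, 12.5 and 37.9 in the experimental libraries. It had 3 control reads in all. It was not tested, since too few libraries reached the CPM that the test asks for. Of all internal mt-Thr reads, 30.8%, 29.9% and 34.2% ended at 25 to 29 in control libraries against 47.9%, 60.9% and 47.1%, without overlap (exact permutation p = 0.1, adjusted p = 0.2). In mt-Pro the same window took 64.2%, 78.5% and 45.8% of the internal reads in the controls and 13.8%, 32.1% and 27.9% in the experimental libraries, the opposite direction, also without overlap (exact permutation p = 0.1, adjusted p = 0.2).

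Next to the anticodon, 2 positions of mt-Thr differed in the bases read. At position 27, A in place of G (G27A) was read in 6 of 13, 15 of 63 and 25 of 55 control reads (46.2%, 23.8% and 45.5%) and in 1 of 103, 0 of 30 and 3 of 86 experimental reads (0.971%, 0% and 3.49%). At position 29, any mismatch (C29T, C29G or C29A) was read in 0 of 9, 0 of 46 and 0 of 41 control reads and in 27 of 86, 8 of 24 and 5 of 72 experimental reads (31.4%, 33.3% and 6.94%). The groups did not overlap at either (exact permutation p = 0.1, with adjusted p = 1 over the 285 mismatches for G27A). Both positions were picked after their values were seen. The control reads over position 29 are few, and 0 of 9 leaves room for a share of up to 29.9% (95% Wilson). The table allows 1 mismatch in a read, so a read with G27A can show none at position 29. G27A was more common in the controls, so the differences at the 2 positions are not independent. The fragment 14 to 39 with G27A, also picked after its values were seen, had 3, 3 and 4 control reads and none in the experimental libraries. It was at least 8.95-fold lower when the experimental group as a whole is set to 3 counts.

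Reads from the 5′ flank of mt-Thr, the end of the cytochrome b side, took 16.5%, 46.6% and 7.22% of its reads in the control libraries, which spanned the experimental values of 17.8%, 26.2% and 20.7% (exact permutation p = 1). Without control replicate 2 the difference turned from -1.91 to 9.68 points. The place where these reads end differed more. Those that carried an A in place of the first base of the tRNA made up 39.2%, 33.9% and 37.5% of them in the controls and 8.37%, 15.9% and 12.3% in the experimental libraries. Such a read that ends at this A holds no matched base of the tRNA. Ends before −1 took 56.9%, 59.8% and 58.3% against 90.1%, 80.4% and 86.4%. Control and experimental values stood apart in both (exact permutation p = 0.1, adjusted p = 0.4). The long fragment −39 to 1 with G1A, at the 40 nt limit of read length, held 54.2, 314 and 25.2 CPM in the controls and 8.65, 10.6 and 15.6 in the experimental libraries. It fell by 2.75 (SE 0.924; limma voom adjusted p = 0.0157; 0.217 with its own spread), and by 1.71 without control replicate 2, where it did not pass (limma voom adjusted p = 0.235). Nor did it pass when any 1 experimental library was left out (limma voom adjusted p = 0.0699, 0.0749 and 0.0564). As a place, with exact and mismatched reads joined and other scaling factors, −39 to 1 was not called (-2.24, limma voom adjusted p = 0.0602). Its groups overlapped, with 19.5 CPM in control replicate 3 and 20.3 in experimental replicate 3. Joining cannot lower a count, so the drop of control replicate 3 from 25.2 CPM came from the scaling.

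From the 3′ flank of mt-Thr, reads took 12.0%, 5.79% and 17.9% in control libraries against 24.4%, 16.9% and 22.5%, with overlap (exact permutation p = 0.2, adjusted p = 0.24). Between 94.5% and 100% of them began at position 68, right after the gene. The most abundant, 68 to 84, held 48.4, 66.3 and 126 CPM in the controls and 232, 43.3 and 123 in the experimental libraries, and did not differ beyond the spread (0.54, limma voom adjusted p = 0.694).
mt-Thr 68 to 84: atcaagaagaaggaact
These bases are complementary to the 3′ part of mt-Pro, so the trailer of each tRNA lies opposite the body of the other. The mt-Pro trailers were lower in every experimental library, and the mt-Thr trailers were higher on average with overlap between the groups.

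The glutamate tRNA gave nearly all its reads from 1 stretch near the 3′ end. Position 60 was covered by 94.7%, 87.5% and 82.04% of its reads in the controls and by 95.2%, 98.0% and 97.6% in the experimental libraries. Position 16, in the 5′ part, was covered by at most 1.25% in any library, and 4 reads in all were 5′ fragments. Within the stretch, 3′ fragments took 61.7%, 46.9% and 60.5% in the controls and 39.9%, 37.9% and 59.5% in the experimental libraries, and internal fragments 33.8%, 43.1% and 21.6% against 57.5%, 61.3% and 39.3%. The groups overlapped in both (exact permutation p = 0.2, adjusted p = 0.24). In every library 87.8% to 94.6% of the internal reads ended at positions 64 to 67, a few bases before the end of the gene.

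The fragments with these ends were those called higher. Fragment 50 to 65 held 3.87, 24.7 and 8.39 CPM in the controls and 112, 55.9 and 102 in the experimental libraries. It rose by 3.00 on the log2 scale (SE 0.972; limma voom adjusted p = 0.0116; 0.116 with its own spread). It did not pass without control replicate 1 or 3 (limma voom adjusted p = 0.0691 and 0.139) or without experimental replicate 1 or 3 (limma voom adjusted p = 0.0590 and 0.0536). Fragment 49 to 65 held 17.4, 20.8 and 2.80 CPM against 123, 40.5 and 70.96, a rise by 2.55 (limma voom adjusted p = 0.0364; 0.169 with its own spread) that was 1.41 without control replicate 3 (limma voom adjusted p = 0.377) and that also did not pass without experimental replicate 1 or 3 (limma voom adjusted p = 0.156 and 0.0886). Fragment 52 to 65, picked after its values were seen, was at 0, 0 and 2.80 CPM in the controls and at 25.95, 24.1 and 39.7 in the experimental libraries. It rose by 4.42 (limma voom adjusted p = 0.00019; 0.0791 with its own spread). Fragment 48 to 65, at 9.68 to 48.1 CPM in control and 53.0 to 91.4 CPM in experimental libraries, did not overlap but did not pass (1.81, limma voom adjusted p = 0.14). Nor did 50 to 71, the most abundant 3′ fragment, at 27.1, 33.8 and 16.8 against 70.9, 42.4 and 156 CPM (1.57, limma voom adjusted p = 0.203). Both passed as places, where mismatched reads are joined and the scaling factors differ. There 48 to 65 rose by 2.21 (limma voom adjusted p = 0.0456, or 0.11 with its own spread) and 50 to 71 by 2.38 (limma voom adjusted p = 0.0327, or 0.118 with its own spread). Whether the joined reads or the scaling made the difference was not tested.

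The 3′ ends of mt-Glu differed from those of the other 2. Its reads that end in the CCA region stopped most often after CC, without the last A: 62.3%, 58.5% and 48.1% in the controls and 74.4%, 86.4% and 69.2% in the experimental libraries. The whole CCA was present in 18.8%, 16.2% and 26.6% in the controls and in 9.05%, 6.28% and 2.53% in the experimental libraries, where it was lower in each (exact permutation p = 0.1, adjusted p = 0.4). In mt-Thr the whole CCA was present in at least 68.95% of such reads and in mt-Pro in at least 34.1%, above every mt-Glu value in all 6 libraries. Both forms of mt-Glu are shown, with the CC or CCA in capitals.
mt-Glu 50 to 71: ttaaatgctgtgtagaaataCC
mt-Glu 34 to 72: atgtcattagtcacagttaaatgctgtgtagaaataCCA
The longer one, picked after its values were seen, begins right after the anticodon and held 7.75, 7.80 and 16.8 CPM in the controls and 18.2, 3.85 and 7.22 in the experimental libraries, with overlap. Reads from the 5′ flank of mt-Glu took 3.01%, 3.51% and 11.4% of its reads in control libraries against 0.699%, 0.157% and 0.514%, without overlap (exact permutation p = 0.1, adjusted p = 0.2). They rest on 61 reads in all.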

How the data were processed

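Small RNA was sequenced from 6 muscle samples, grouped by their titles. The authors deposited a table of read counts for each distinct sequence and library, aligned, per the file headers, to mature tRNAs with CCA and to precursors; no alignment in it has more than 1 mismatch. The aligner and its version are not given in the sources used here, and the submitters' processing notes name only a mouse build. Counts in the deposited table equalled those in the deposited library files in all 141197 pairs checked. Lines of text between the counts kept them from being declared as plain counts.

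Each sequence was counted once. Fragments, places and anticodon sums were fitted over the whole table with limma 3.58.1 voom in R 4.3.3 (prior count 0.5, trimmed mean of M values with trims of 0.3 and 0.05, no covariate, Benjamini-Hochberg, threshold 0.05), for features with 15 counts in all and, in 3 libraries, the CPM that 10 counts make in the median one. The pooled spread had infinite prior degrees of freedom for fragments. Shares were compared by exact two-sided permutation of libraries. Mismatch shares ignored the outer 2 bases of a read and needed 30 reads in each group. The code was tested on simulated counts. The samples were not treated as paired by replicate number.

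The members and lists were chosen with earlier results of these data known. Fragments named are, per tRNA, the 4 most abundant, the 6 largest rises and falls over the members (adjusted p under 0.05, 50 CPM or more in the higher group, no overlap, ends within 2 nt counted as 1 place), the most abundant of each class with 100 reads or more, and mismatches differing by 50 points. Other fragments were picked after their values were seen. The shares at fixed ends, of CCA forms and of reads with no other mismatch were added after seeing the data.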

Additional observations from a re-analysis of the deposited data

How the results depend on the processing

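The member fragments called higher and lower numbered 4 and 12. Other settings gave 1 and 11 with library totals, 2 and 8 with mitochondrial reads as library sizes, 41 and 85 with no filter on low counts, 0 and 0 with each fragment's own spread, 4 and 4 with exact matches only, and 5 and 22 with sequences of 1 tRNA only. Leaving out 1 library gave 0 to 9 higher (0 without experimental replicate 1, 9 without experimental replicate 2, 1 without experimental replicate 3, 2 without control replicate 3) and 11 to 25 lower (25 without control replicate 1, 19 and 21 without experimental replicates 1 and 2). Member places called higher and lower numbered 7 and 11. They were 1 and 12 with library totals, 4 and 12 with median-of-ratios factors, 36 and 33 with no filter, and 0 and 1 with each place's own spread. Leaving out 1 library gave 1 to 13 higher (13 without control replicate 2, 3 and 1 without experimental replicates 1 and 3) and 6 to 25 lower (25 without control replicate 1, 6 without experimental replicate 3). With no filter more sequences enter; for the other settings the cause was not tested.

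With the replicate number as a block, 3 fragments were higher and 12 lower, and 4 places were higher and 11 lower. Same-numbered libraries correlated at -0.306, -0.0743 and 0.114, and none correlated best with its own number. With so few libraries these correlations cannot decide whether the numbers pair the samples.

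Counting exact matches only drops every mismatched read, those with A16G among them. It turned the mt-Pro sum to 0.73, the mt-Pro share to 0.0243 points of tRNA-aligned and 0.334 of mitochondrial reads, the share of all 3 tRNAs of tRNA-aligned reads to 0.0497, the mt-Pro 5′ fragments to 5.17 and the mt-Thr 5′ flank to 0.668 points. With 1 library left out, the difference in the share of all 3 ran from -0.204 to 0.0221 points of tRNA-aligned reads (the latter without experimental replicate 2) and from -0.0276 (without control replicate 3) to 0.496 of mitochondrial reads, and the mt-Thr 5′ flank from -10.03 to 9.68 (the latter without control replicate 2). Of 28 share differences, 21 kept their direction under every alternative tried. For single fragments, mt-Thr 54 to 70 (-0.35) turned to 0.26 with mitochondrial reads as library sizes, 0.14 with no filter, and from -1.28 to 0.17 with 1 library left out (0.17 and 0.05 without control replicate 2 and experimental replicate 3). mt-Thr 68 to 84 (0.54) ran from -0.16 (without experimental replicate 1) to 1.25.

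The A16G difference was -48.5 points with 4 bases left out at each read end and -45.6 over distinct sequences. With mitochondrial reads as library sizes, added after seeing the data, the sums of mt-Glu, mt-Thr and mt-Pro stood at 1.88, -0.31 and -0.58. Depth limits the mt-Pro shares in experimental replicate 2, which had 326 mt-Pro reads, and the mt-Glu shares in control replicates 1 and 3, with 133 and 167.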
